A study of Mus musculus with 6 samples.

Results

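The genes described here are 10 receptors and co-receptors for bone morphogenetic proteins (BMPs) and activins, read in alveolar type 2 (AT2) cells of the adult mouse lung. They were taken by symbol from a deposited table of 24421 genes, and all 10 were found in it. The type I receptors are *Bmpr1a*, *Bmpr1b*, *Acvr1*, *Acvr1b* and *Acvrl1*, the type II receptors are *Bmpr2*, *Acvr2a* and *Acvr2b*, and the co-receptors are *Eng* and *Rgmb*. All 10 passed the expression filter, so none is missing from the values below. In mm10, *Bmpr1b* spans chr3:141837136-142169228, *Acvr1* chr2:58446438-58566828, *Acvr1b* chr15:101174125-101212601, *Bmpr2* chr1:59764279-59878081, *Acvr2a* chr2:48814109-48903264 and *Acvr2b* chr9:119402501-119433506, and the other 4 are placed where they are described.

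BMP and activin ligands are dimers that bring type II and type I serine/threonine kinase receptors together on the cell surface. The type II receptor is active on its own and phosphorylates the type I receptor, which then phosphorylates SMAD proteins that move into the nucleus and change transcription. In the lung, BMP signaling patterns the developing epithelium, and in the adult alveolus it is active in AT2 cells, which make surfactant and can give rise to the flat type 1 (AT1) cells.

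There were 6 libraries, 3 in each of 2 groups, made from poly(A) RNA of cells sorted for a lineage label. Whether each came from 1 mouse or a pool is not given in the sources used here, so the tests measure the spread between libraries. The control mice (AT2 CTRL) carried Sftpc-CreERT2/+ and R26-tdTomato/+. The other mice (AT2 CAB) carried Sftpc-CreERT2/+ with R26-tdTomato on one *Rosa26* allele and R26-caBmpr1a, which encodes a constitutively active BMPR1a receptor, on the other. Tamoxifen frees the Cre of AT2 cells, driven by the *Sftpc* locus, to switch on both alleles, and both groups carry the Cre and the tdTomato reporter. The sort follows tdTomato, a separate allele from caBmpr1a, so a sorted AT2 CAB cell need not have recombined the receptor allele. In each group 2 libraries were from mice 12 weeks old and 1, AT2 CTRL replicate 2 or AT2 CAB replicate 1, from mice 16 weeks old. The tamoxifen dose and the interval before the sort are not given in the sources used here for these libraries.

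Each library held between 21554249 and 28440227 read counts, and the 3 counts taken as the detection floor corresponded to 0.0976 to 0.138 CPM (counts scaled to 1000000 per library after TMM normalization, edgeR's correction for library composition), which covers counting error only. The AT2 markers were high in every library, *Sftpc* (surfactant protein C) at 48764 ± 9845 CPM in AT2 CTRL and 43992 ± 1342 CPM in AT2 CAB (SD, n = 3). The summed level of 12 AT2 markers was lower in AT2 CAB, at 111107 to 135304 CPM against 153457 to 170759 CPM. Reads on 4 Y-linked genes summed to 176 CPM in AT2 CTRL replicate 1 and to 146 CPM in AT2 CAB replicate 3, and the other 4 libraries had none.

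*Bmpr1a*, the gene whose active form the caBmpr1a allele encodes, had the highest control mean of the 10 per kilobase of exon. In AT2 CTRL its range overlapped that of *Eng*, and *Bmpr1a* did not differ detectably between the groups. The gene spans 34411068 to 34502546 on chromosome 14 (mm10, reverse strand). Its level was 105.4, 129.9 and 124.7 CPM in AT2 CTRL replicates 1, 2 and 3, and 131.1, 128.4 and 96.8 CPM in AT2 CAB replicates 1, 2 and 3. The groups overlapped, and the lowest value of all was that of AT2 CAB replicate 3. The ratio of AT2 CAB to AT2 CTRL was 0.990, with a 95% interval of 0.779 to 1.26 (log2 fold change -0.015 with a standard error of 0.15, and an adjusted p = 0.983 by quasi-likelihood in edgeR). The sign of this small difference depended on the scaling. Whether RNA of the caBmpr1a transgene aligns to *Bmpr1a* exons and is counted there is not given in the sources used here and was not tested.

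For the other 9 genes too, no difference passed an adjusted p of 0.05. None of the 10 was called in either direction, beside 42 of the 16723 genes tested (0.251%), made up of 0.239% higher and 0.012% lower in AT2 CAB. At an unadjusted p under 0.05 there was 1 of 10, *Acvrl1*, against 9.67% of all genes. DESeq2 and limma-voom likewise called none of the 10, with 2 (*Acvrl1* and *Eng*) and 1 (*Acvrl1*) at an unadjusted p under 0.05. The groups did not overlap for 1 of the 10, *Acvr2b*, which was higher, beside 17.1% of all genes (7% higher and 10.1% lower). The median log2 fold change of the 10 was -0.031, against -0.0096 for all genes tested. For 7 of the 10 the 95% interval lay within a 2-fold change in either direction, and for *Bmpr1b*, *Acvrl1* and *Eng* it reached past that. For values tested over libraries alone, the smallest two-sided p of an exact permutation with 3 per group is 0.1.

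**Figure D1:**
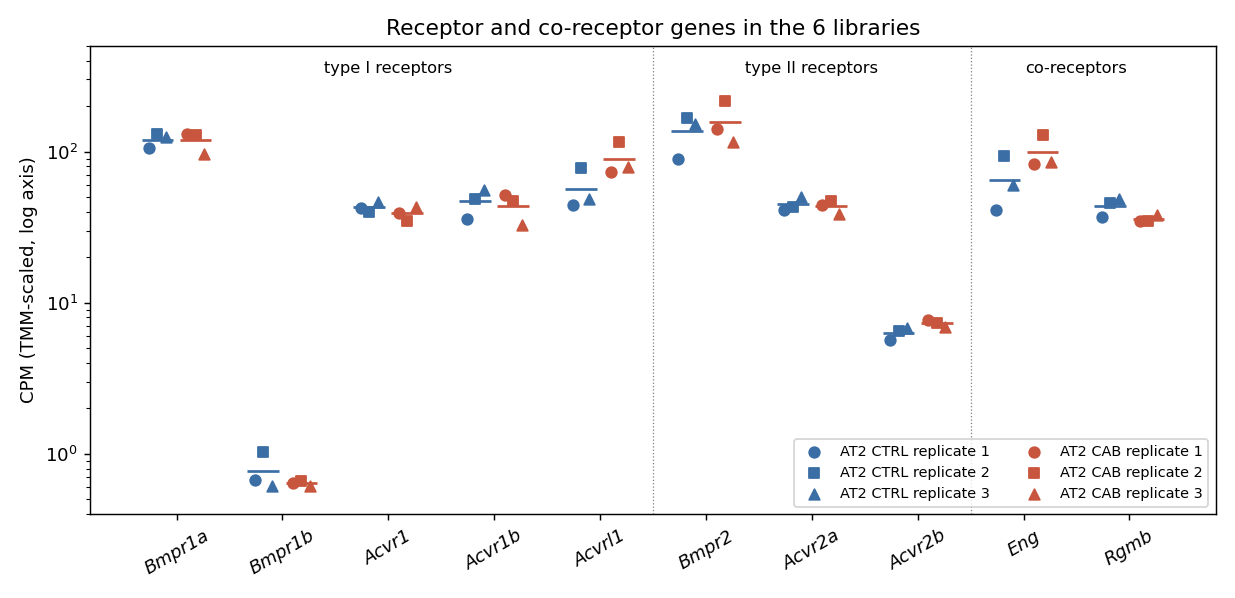
Level of each receptor and co-receptor gene in CPM (log axis) in the 3 AT2 CTRL (blue) and 3 AT2 CAB (red) libraries, with a line at each group mean. *Bmpr1a* and *Bmpr2* sit near the top, *Bmpr1b* stays near 1 CPM, and the blue and red points overlap for every gene but *Acvr2b*.

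The promoters of *Bmpr1a*, *Bmpr2* and *Eng* are shown because they differ in base composition and belong to a type I receptor, a type II receptor and a co-receptor whose levels spanned 1.35-fold, 2.42-fold and 3.13-fold over the 6 libraries. Each window holds the 250 bases before the transcription start in RefSeq, printed 5′ to 3′ on the gene's strand, with CG dinucleotides in capitals.
Bmpr1a (GRCm38.p6, chr14:34502547-34502796, reverse strand): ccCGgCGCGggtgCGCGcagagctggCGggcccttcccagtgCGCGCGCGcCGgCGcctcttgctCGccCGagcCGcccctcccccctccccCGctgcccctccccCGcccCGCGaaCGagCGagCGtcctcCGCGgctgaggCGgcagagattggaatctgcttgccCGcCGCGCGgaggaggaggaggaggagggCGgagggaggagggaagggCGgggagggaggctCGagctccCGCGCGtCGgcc
Bmpr2 (GRCm38.p6, chr1:59764029-59764278, forward strand): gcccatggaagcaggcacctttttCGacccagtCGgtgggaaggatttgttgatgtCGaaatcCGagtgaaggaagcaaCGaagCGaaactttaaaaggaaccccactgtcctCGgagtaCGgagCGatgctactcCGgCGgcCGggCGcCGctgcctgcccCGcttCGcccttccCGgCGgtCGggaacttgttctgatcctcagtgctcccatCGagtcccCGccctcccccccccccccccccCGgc
Eng (GRCm38.p6, chr2:32646345-32646594, forward strand): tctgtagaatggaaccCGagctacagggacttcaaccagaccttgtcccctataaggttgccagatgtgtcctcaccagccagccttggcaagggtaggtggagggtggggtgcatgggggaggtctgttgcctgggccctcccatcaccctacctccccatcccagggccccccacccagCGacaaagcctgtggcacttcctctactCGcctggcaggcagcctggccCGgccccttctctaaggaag

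Of the 10 genes, 8 had a RefSeq promoter within 500 bases of the gene start in the count table, and for 5 the start was the same base. The window of *Bmpr1a* held 36 CG dinucleotides, that of *Bmpr2* 22 and that of *Eng* 4, beside a median of 6 over 32841 mouse windows of the same length. The windows of 7 of the 8 genes held more CG than that median, with 49 in *Acvr2a*, 46 in *Acvr1* and 42 in *Acvr1b*, and *Eng* was the exception. The genes with the most CG, *Acvr2a* and *Acvr1*, had the smallest spans over the libraries, 1.29-fold and 1.33-fold. *Eng*, with the least CG, had the largest, 3.13-fold. In between, *Bmpr1a* (36), *Acvr2b* (24) and *Bmpr2* (22) spanned 1.35-fold, 1.36-fold and 2.42-fold. The order was not complete. *Rgmb* held 18 and its level spanned 1.39-fold, while *Acvr1b* held 42 and its level spanned 1.72-fold. The relation of CG content to span was not tested. The letters GGCGCC, a GC-rich element that BMP-activated SMADs are known to bind, occurred on either strand in 2 of the 8 windows (*Bmpr1a* and *Bmpr2*) and in 9.59% of all windows. The letters CAGAC, the core of the element bound by SMAD4, occurred on either strand in 3 of the 8 (*Acvr2a*, *Acvr2b* and *Eng*) and in 42.2% of all windows. These matches describe the letters only.

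Among the type I receptors that carry BMP signals in epithelium, *Bmpr1a* and *Acvr1* were both well above *Bmpr1b*. *Acvr1*, whose protein signals to SMAD1 and SMAD5 like BMPR1a, had 42.5, 40.0 and 46.4 CPM in AT2 CTRL and 39.0, 34.99 and 43.0 CPM in AT2 CAB. The groups overlapped, with a ratio of 0.908 and a 95% interval of 0.747 to 1.10 (adjusted p = 0.740 from edgeR's test). *Bmpr1b*, the close relative of *Bmpr1a*, was low, at 15, 24 and 16 counts in AT2 CTRL and 14, 17 and 19 counts in AT2 CAB. That is 0.673, 1.03 and 0.609 CPM against 0.642, 0.659 and 0.618 CPM. The 95% interval of its ratio ran from 0.367 to 1.89, so a difference was not detectable at this depth.

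*Acvr1b*, the activin type I receptor, which signals to SMAD2 and SMAD3, had 36.0, 48.2 and 56.1 CPM in AT2 CTRL and 51.8, 46.9 and 32.6 CPM in AT2 CAB. The replicates of each group spread over the same range, and the ratio of the groups was 0.934 (95% interval 0.668 to 1.31, adjusted p = 0.905 from edgeR's test). The log2 fold change turned positive with scaling by library size alone (0.028), without AT2 CTRL replicate 3 (0.051) and without AT2 CAB replicate 3 (0.11).

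*Acvrl1* was the type I receptor with the largest difference. It encodes a receptor for BMP9 and BMP10 that is known mainly from endothelial cells. It lies on chromosome 15 of mm10 from 101128522 to 101145336 and had 44.6, 77.9 and 48.3 CPM in AT2 CTRL and 73.4, 115.1 and 79.4 CPM in AT2 CAB. AT2 CTRL replicate 2 was above AT2 CAB replicate 1, so the groups overlapped. The log2 fold change was 0.65 (standard error 0.25), a ratio of 1.57 with a 95% interval of 1.06 to 2.32, and the adjusted p was 0.459 from edgeR's test.

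*Bmpr2*, the type II receptor for BMPs, spanned 2.42-fold over the 6 libraries, less only than *Eng* and *Acvrl1* among the 10 genes. It had 88.7, 167.4 and 152.4 CPM in AT2 CTRL and 141.2, 214.8 and 115.9 CPM in AT2 CAB. The lowest library was AT2 CTRL replicate 1 and the highest AT2 CAB replicate 2. In between, AT2 CTRL replicates 2 and 3 were both above AT2 CAB replicates 1 and 3. The ratio was 1.15 (95% interval 0.737 to 1.81, adjusted p = 0.847 from edgeR's test). Without AT2 CTRL replicate 1 the log2 fold change was -0.029, and without AT2 CAB replicate 2 it was -0.075.

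The type II receptors shared by activins and BMPs were steadier. *Acvr2a* had 41.4, 43.0 and 50.3 CPM in AT2 CTRL and 44.2, 47.3 and 38.9 CPM in AT2 CAB, a ratio of 0.968 (95% interval 0.790 to 1.19, adjusted p = 0.923 from edgeR's test). Of its exonic bases 8.99% overlap *Orc4*, and reads there were left out of the counting. *Acvr2b* had a lower level than *Acvr2a*, with 5.65, 6.47 and 6.85 CPM in AT2 CTRL and 7.66, 7.29 and 6.93 CPM in AT2 CAB. All 3 AT2 CAB values lay above all 3 AT2 CTRL values, closely so for replicate 3 of each group. The ratio was 1.15 (95% interval 0.861 to 1.54, adjusted p = 0.745 from edgeR's test).

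The co-receptors went opposite ways in their estimates, and neither passed the test. *Eng*, endoglin, presents BMP9 to ACVRL1 on endothelial cells and is found on chromosome 2 of mm10 from 32646595 to 32682669. It had 41.3, 93.0 and 59.8 CPM in AT2 CTRL and 82.3, 129.5 and 84.8 CPM in AT2 CAB. The highest control value was above 2 of the 3 AT2 CAB values. The log2 fold change was 0.61 (standard error 0.29), a ratio of 1.53 with a 95% interval of 0.958 to 2.44 (adjusted p = 0.554 from edgeR's test). In a fit of the 4 libraries that lack Y-linked reads, *Eng* was at 0.51 and *Acvrl1* at 0.62 on the log2 scale, and between the 2 libraries with such reads the log2 ratio was 1.04 for *Eng* and 0.83 for *Acvrl1*.

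*Rgmb*, a membrane-anchored protein that binds BMP2 and BMP4 and passes them to their receptors, lies on chromosome 17 of mm10 from 15806253 to 15826586. It had 36.7, 45.6 and 48.3 CPM in AT2 CTRL and 34.8, 34.7 and 38.3 CPM in AT2 CAB. AT2 CAB replicates 1 and 2 were below every control library, and AT2 CAB replicate 3 lay above AT2 CTRL replicate 1. The ratio was 0.826 (95% interval 0.669 to 1.02, adjusted p = 0.554 from edgeR's test). A fit of the 4 libraries that lack Y-linked reads put *Rgmb* at -0.40 on the log2 scale, with a standard error of 0.093 (edgeR, adjusted p = 0.120). Between the 2 libraries with such reads, 1 of each group, the log2 ratio was 0.060.

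**Figure D2:**
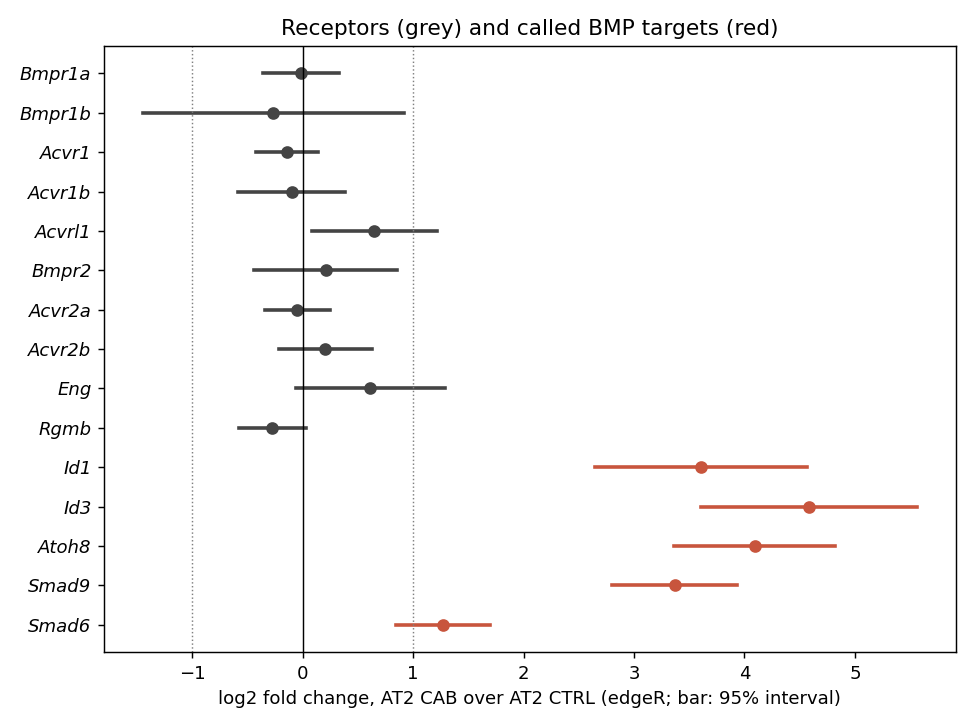
Log2 fold change of AT2 CAB over AT2 CTRL from edgeR with its 95% interval, for the 10 receptor and co-receptor genes (grey) and the 5 BMP targets that were called (red); dotted lines mark a 2-fold change. The receptors lie between -0.28 and 0.65, and the called targets between 1.27 and 4.58. All 12 tested BMP targets, called or not, run from 0.19 to 4.58 and so overlap the receptors.

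*Acvrl1* and *Eng* followed the endothelial markers *Pecam1* and *Cdh5* from library to library. *Pecam1*, the endothelial adhesion molecule CD31, had 42.3, 84.1 and 49.95 CPM in AT2 CTRL and 70.9, 115.1 and 87.6 CPM in AT2 CAB, and *Cdh5*, VE-cadherin, had 51.6, 114.4 and 74.3 CPM against 100.1, 168.9 and 118.6 CPM. *Acvrl1* put the 6 libraries in the same order as *Pecam1* and *Cdh5*, from AT2 CAB replicate 2 at the top to AT2 CTRL replicate 1 at the bottom. *Eng* differed from that order only in that AT2 CTRL replicate 2 stood above AT2 CAB replicate 3.

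Set against *Pecam1* in the same library, both genes were nearly constant. The level of *Acvrl1* per kilobase of exon was 0.926, 0.815 and 0.851 times that of *Pecam1* in AT2 CTRL and 0.910, 0.879 and 0.797 times in AT2 CAB. The ratio of *Acvrl1* to *Pecam1* thus spanned 1.16-fold over the 6 libraries, while *Acvrl1* itself spanned 2.58-fold in CPM. For *Eng* the ratio to *Pecam1* was 0.911, 1.03 and 1.12 in AT2 CTRL and 1.08, 1.05 and 0.903 in AT2 CAB, a 1.24-fold span against 3.13-fold for its CPM. The ratios of the 8 other genes to *Pecam1* spanned between 2.17-fold (*Acvr2b*) and 3.30-fold (*Acvr1*). In CPM, *Acvr2b* spanned 1.36-fold and *Acvr1* 1.33-fold, so their ratios mostly carry the spread of *Pecam1* itself. *Bmpr2* spanned 2.42-fold in CPM and 2.31-fold over *Pecam1*. The comparison with *Pecam1* was chosen after the values were seen.

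Taken over *Pecam1*, the difference between the groups was a log2 ratio of -0.0033 for *Acvrl1* and -0.012 for *Eng*, and over *Cdh5* it was -0.076 and -0.071. The whole list of 12 endothelial markers, none at 0, had a summed level of 497 to 818 CPM in AT2 CTRL and 715 to 1093 CPM in AT2 CAB, and 11 of the 12 had a log2 fold change above 0, beside 8160 of all 16723 genes. None of the 12 was called (0.251% of all genes), and 7 of the 12 had an unadjusted p under 0.05 (9.67% of all genes). Over that sum, *Acvrl1* was at 8.98%, 9.52% and 8.16% in AT2 CTRL and at 10.3%, 10.5% and 9.59% in AT2 CAB, a log2 ratio of 0.19, and for *Eng* the log2 ratio was 0.17. The 12 mesenchymal markers summed to 229 to 341 CPM in AT2 CTRL and 404 to 514 CPM in AT2 CAB, with 12 of 12 estimates above 0 and none called. The 16 immune markers summed to 2000 to 2714 CPM in AT2 CTRL and 323 to 1420 CPM in AT2 CAB, a sum that *Lyz1* dominates, whereas 14 of the 16 estimates were above 0, with a median log2 fold change of 0.64 and none called. In bulk RNA from sorted cells, more cells of a type and more RNA per cell cannot be told apart, and the part of these other cells in the levels of *Acvrl1* and *Eng* was not tested.

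**Figure D3:**
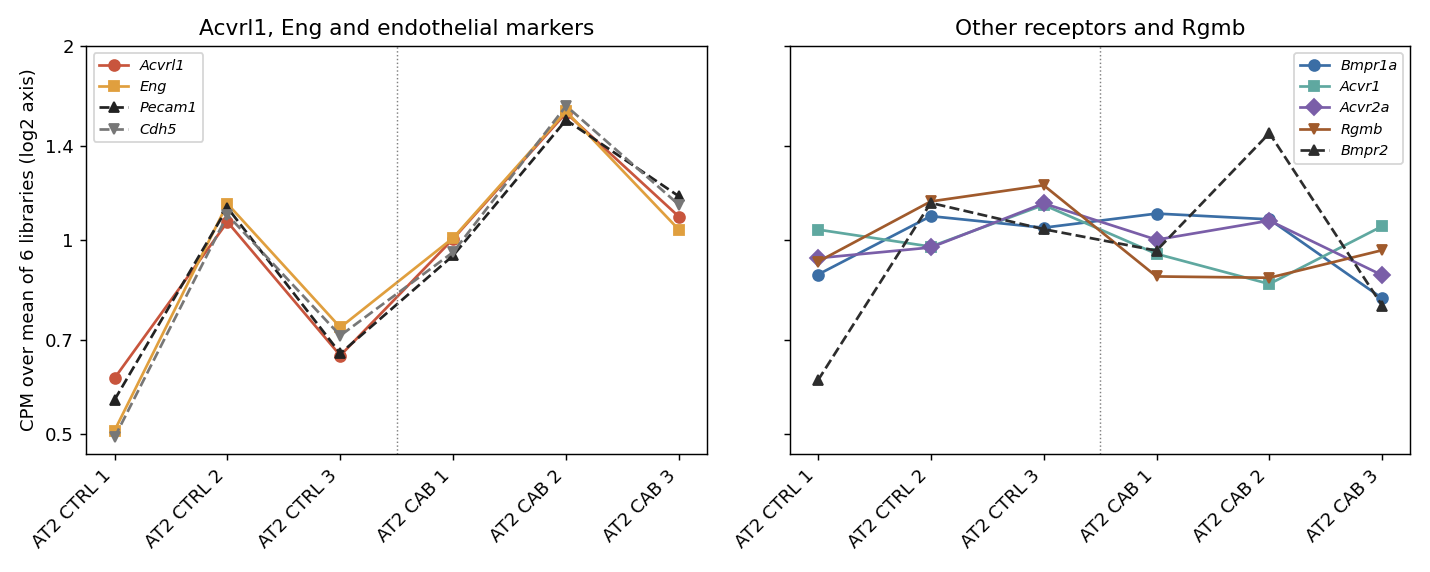
CPM of each gene over its own mean of the 6 libraries (log2 axis), by library; lines only join the values of 1 gene. On the left, *Acvrl1* and *Eng* follow *Pecam1* and *Cdh5* from the lowest library, AT2 CTRL 1, to the highest, AT2 CAB 2. On the right, *Bmpr1a*, *Acvr1*, *Acvr2a* and *Rgmb* span at most 1.39-fold, and *Bmpr2* spans 2.42-fold.

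Levels of different genes were compared per kilobase of exon. In AT2 CTRL the order was *Bmpr1a* (21.9 ± 2.35 CPM per kilobase, SD, n = 3), *Eng* (18.1 ± 7.33), *Rgmb* (16.5 ± 2.30), *Acvrl1* (15.03 ± 4.82), *Acvr1b* (14.3 ± 3.08), *Acvr1* (13.0 ± 0.981), *Bmpr2* (12.3 ± 3.77), *Acvr2a* (7.90 ± 0.840), *Acvr2b* (3.72 ± 0.362) and *Bmpr1b* (0.132 ± 0.0388). From *Bmpr1a* down to *Acvr2a*, the ranges of neighbours in this order overlapped in the control libraries. *Acvr2a* was above *Acvr2b*, and *Acvr2b* above *Bmpr1b*, in 6 of 6 libraries with no overlap. In AT2 CAB the means of *Eng* (27.7 ± 7.43 CPM per kilobase) and *Acvrl1* (23.6 ± 5.95) were above that of *Bmpr1a* (21.7 ± 3.48), within the spread between libraries.

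The mean share of *Bmpr1a* among the BMP type I receptors was lower in AT2 CAB, with overlapping groups. *Bmpr1a* accounted for 43.7%, 41.9% and 45.8% of the summed level per kilobase of the BMP type I receptors *Bmpr1a*, *Bmpr1b*, *Acvr1* and *Acvrl1* in AT2 CTRL, and for 43.3%, 36.3% and 34.1% in AT2 CAB. AT2 CAB replicate 1 lay within the control range and the other 2 below it. The difference of the means was -5.87 percentage points (exact permutation test over libraries, two-sided, p = 0.2). The smallest p this test can give with 3 per group is 0.1, so it cannot decide whether the share differs. Of the genes in that sum, only *Acvrl1* had a higher mean per kilobase in AT2 CAB, 23.6 against 15.03 in AT2 CTRL. The mean of *Bmpr1a* itself was 21.7 against 21.9. The lower share thus came with the higher *Acvrl1* in the sum, and a share without *Acvrl1* was not tested. With *Acvr1b* added to the sum, the share of *Acvrl1* was 23.1 ± 5.10% in AT2 CTRL and 33.2 ± 5.66% in AT2 CAB (SD, n = 3).

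The ratio of type II to type I receptors had nearly the same mean in both groups. The summed level per kilobase of the 3 type II receptors was 0.338, 0.371 and 0.399 times that of the 5 type I receptors in AT2 CTRL, and 0.352, 0.406 and 0.346 times in AT2 CAB. The group means were 0.369 and 0.368 (exact permutation test, two-sided, p = 1). Within the type II receptors *Bmpr2* made up 50.6 ± 7.08% of the summed level in AT2 CTRL and 53.5 ± 6.24% in AT2 CAB (SD, n = 3), with overlapping ranges.

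**Figure D4:**
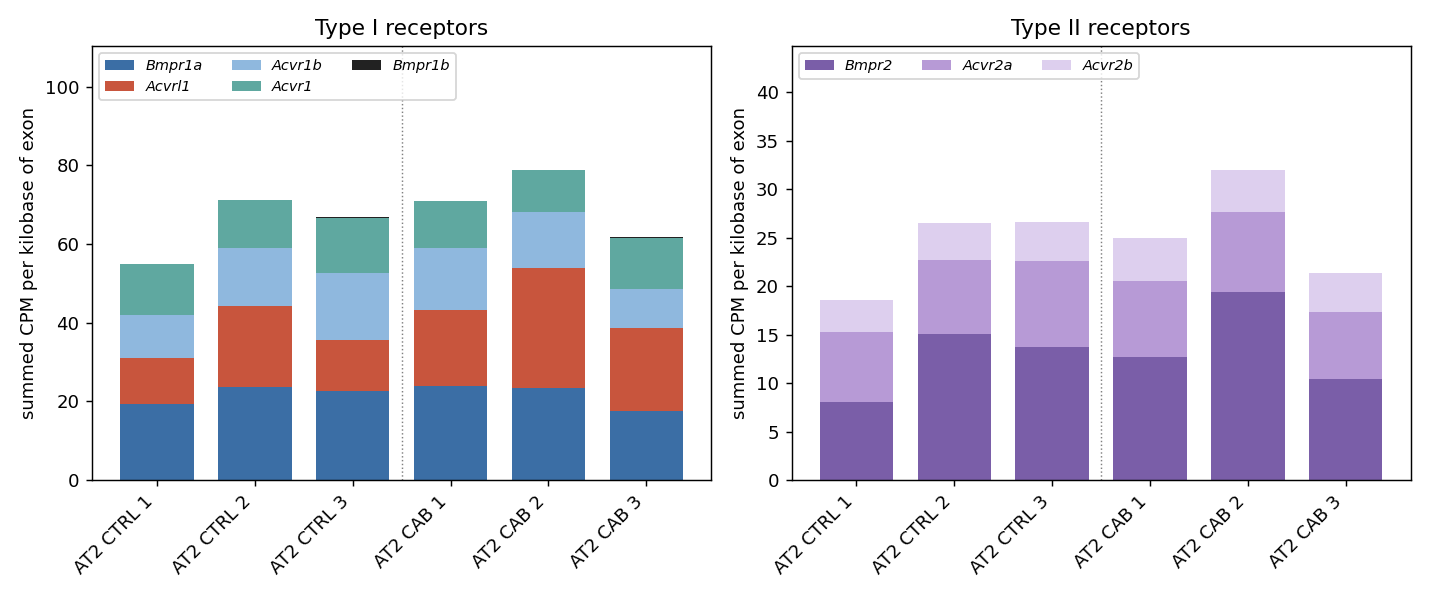
Stacked levels of the type I receptors (left) and type II receptors (right) in CPM per kilobase of exon, by library. The *Acvrl1* segment is largest in AT2 CAB replicate 2, *Bmpr1b* is too low to see, and the type II sum lies between 18.6 and 32.0.

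BMP targets were called higher in the same AT2 CAB libraries. Of 57 other tested genes of the pathway, 5 were called, all higher in AT2 CAB, beside 0.239% of all genes called in that direction. The lists were chosen with earlier results of these data known, so this comparison is not independent of the data. The called genes were the targets *Id1*, *Id3* and *Atoh8*, which encode helix-loop-helix regulators, and *Smad6* and *Smad9*, which encode an inhibitory and a receptor-regulated SMAD. Their log2 fold changes were 3.61 for *Id1*, 4.58 for *Id3*, 4.10 for *Atoh8*, 1.27 for *Smad6* and 3.37 for *Smad9*. *Id1* had 18.5, 20.8 and 19.2 CPM in AT2 CTRL and 124.4, 176.6 and 411.4 CPM in AT2 CAB, and *Smad6* had 44.7, 63.2 and 55.4 CPM against 105.3, 158.6 and 130.2 CPM.

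Among the 11 tested genes of other receptors and co-receptors, none was called, beside 0.251% of all genes, and 7 had a log2 fold change above 0, beside 8160 of all 16723. *Tgfbr1*, *Tgfbr2* and *Tgfbr3*, the receptors of TGFβ, were at 0.15, 0.030 and 0.31 on the log2 scale. The pseudoreceptor gene *Bambi* was at 0.19, and *Fkbp1a*, whose protein holds type I receptors inactive, was at -0.14. *Rgma*, the relative of *Rgmb*, had 48.4, 50.5 and 40.2 CPM in AT2 CTRL and 39.9, 36.2 and 24.2 CPM in AT2 CAB. Its log2 fold change was -0.47 ± 0.19 (standard error, with an adjusted p = 0.485 in edgeR). *Rgma* was the 1 gene of these 11 whose groups did not overlap, beside 17.1% of all genes (10.1% lower). *Neo1*, which encodes the RGM receptor neogenin, was at -0.22 on the log2 scale, *Tmem100* at 0.42, *Amhr2* at -0.10, *Acvr1c* at 0.23 and *Tdgf1*, below 1 CPM in every library, at 1.30. Of the 15 tested ligands, the 13 antagonists and the 10 SMADs and ubiquitin ligases, 0, 0 and 2 were called, with medians of -0.065, 0.41 and 0.0062, and of the 12 BMP targets 5 were called, with a median of 1.30. The target list shares *Smad6*, *Smad7* and *Smad9* with the SMADs and *Bambi* with the other receptors, and these are counted in both lists, so the calls are those of 5 genes among the 57.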

How the data were processed

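The authors sequenced poly(A) RNA of sorted AT2 cells as read pairs, trimmed them with PRINSEQ and Trimmomatic, aligned them to mm10 with Hisat2, removed duplicates with SAMtools and counted reads on exons with featureCounts 1.5.3. They deposited raw read counts for 24421 genes and the summed exon length of each gene, without normalization. By the command in the deposited table, mates were counted singly, strand was not used, and reads on overlapping genes or with several alignments were left out.

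Groups and replicate numbers came from the sample labels. All genes passing edgeR's filter (minimum count 10) were fitted with TMM scaling and the quasi-likelihood test (edgeR 4.0.16, R 4.3.3), adjusted by Benjamini-Hochberg over 16723 genes and called at an adjusted p under 0.05. The standard error is the log2 fold change over the square root of F. DESeq2 1.42.0, which the paper's methods name, and limma-voom (limma 3.58.1) were alternatives. The fits were tested on simulated data. Every pair of replicates differed by more than counting noise. The mean chi-square per gene was 13.8 for AT2 CTRL replicates 2 and 3 and 16.7 for AT2 CAB replicates 1 and 2. Pairs with AT2 CTRL replicate 1 or AT2 CAB replicate 3, the libraries with Y-linked reads, had 52.8 to 76.3. Levels between genes are CPM per kilobase of the exon length in the table. Promoters are from RefSeq (GRCm38.p6).

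The 10 genes, the gene lists and the tests were chosen with earlier results of these data known. The genes named are the 10, the called pathway genes, the tested genes of the list of other receptors, and fixed cell type markers. *Lyz1* and *Orc4* were named after their values were seen.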

Additional observations from a re-analysis of the deposited data

How the results depend on the processing

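None of the 10 receptor and co-receptor genes was called under any of the 19 alternatives run, which covered tests, scalings, filters, covariates, a fold threshold, halved counts and each library left out. At an unadjusted p under 0.05, *Acvrl1* appeared in 15 of the 18 that refit single genes, *Eng* in 6 and *Rgmb* in 3. *Bmpr1b* could not be fitted with a minimum count of 50 or with halved counts. The log2 fold change of *Acvrl1* stayed between 0.43 and 0.94, that of *Eng* between 0.37 and 0.96 and that of *Rgmb* between -0.40 and -0.14, before the ratios to endothelial genes given above.

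The log2 fold change of *Bmpr1a* turned positive with DESeq2-type size factors (0.010), upper-quartile scaling (0.054), library size only (0.11), a minimum count of 50 (0.048), the 4 libraries without Y-linked reads (0.061) and halved counts (0.0019), and lay between -0.11 and 0.15 with 1 library left out. *Acvr1b* turned with library size only (0.028), and *Acvr2a* with upper-quartile scaling (0.025), library size only (0.082), a minimum count of 50 (0.018) and the 4 libraries (0.0051). With 1 library left out, *Acvr1b* lay between -0.26 and 0.11, *Acvr2a* between -0.11 and 0.065 and *Bmpr2* between -0.075 and 0.42. Relative to *Pecam1* and *Cdh5*, settings chosen after seeing the data, *Acvrl1* was at -0.0033 and -0.076 and *Eng* at -0.012 and -0.071, while relative to the endothelial marker sum, likewise chosen after seeing the data, they were at 0.19 and 0.17. The median of all genes was at -0.0096 with TMM and 0.12 with library size only, so values under the latter are shifted upward.

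Over all genes the number called was 283 with DESeq2, 67 without a filter, 423 with a Y-linked covariate and 113 in the 4 libraries, and 6 to 63 with 1 library left out. Of the other pathway genes, 8, 10 and 8 were called with DESeq2, the Y-linked covariate and the 4 libraries, and 2 to 6 with 1 library left out. With the loss of AT2 CTRL replicate 1, 2 or 3 the latter was 2, and with that of AT2 CAB replicate 2 it was 3. The difference in the ratio of type II to type I receptors was -0.0013. It was 0.013 for counts not divided by length, and between -0.020 and 0.013 with 1 library left out. The share of *Bmpr1a* differed by between -8.58 and -3.97 points over its alternatives, all of which kept *Acvrl1* in the sum.

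A replicate block put *Bmpr1a* at -0.022 and *Acvrl1* at 0.67 on the log2 scale and called 41 genes in all, none of them a receptor gene of the 10. With it, edgeR's unadjusted p was 0.0016 for *Acvrl1* and 0.0044 for *Eng*, against 0.029 and 0.070 in the main fit. The adjusted p with the block was 0.192 and 0.289. Libraries with the same replicate number differ in genotype. The correlations of their deviations from the group means were -0.24, 0.20 and -0.53, of mixed sign, so the number was not taken as a pairing. The cause of these changes was not tested.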
